A study of Mus musculus with 16 samples.

Results

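The transcripts described are those of 9 keratin genes, Krt7, Krt8, Krt13, Krt14, Krt15, Krt17, Krt18, Krt19 and Krt20, in a mouse culture of alveolar rhabdomyosarcoma (aRMS), a childhood tumor with skeletal muscle features. They were chosen by symbol from the array annotation, as keratins of which several had changed in opposite directions after knockdown, so their knockdown differences are a description and carry no test. All 9 are among the 16593 genes named on the array, with 1 probe each, and they are 9 of 47 keratin genes there.

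The culture came from a tumor of the Myf6Cre, Pax3:Foxo1a, p53 conditional mouse, in which Cre is driven from Myf6, a gene of the muscle lineage, and eYFP is carried as a second cistron on the Pax3:Foxo1a mRNA. Cells had been given 10 nM siRNA against eYFP (siYFP, here called knockdown) or a control siRNA, both with lipofectamine2000, and were sorted after Hoechst33342 staining into 2N (G1/G0), 3N (S) and 4N (G2/M) cells. Knockdown 2N, knockdown 4N, control 2N and control 4N cells had 3 arrays each, 1 for each of experiments 1, 2 and 3, while knockdown 3N and control 3N cells had 2 each, for experiments 1 and 2. Both siRNA groups were in the same tumor cells with the same alleles. Since 1 siRNA was used against the fusion mRNA, effects of that siRNA and of losing Pax3:Foxo1a cannot be told apart. The sources used here do not give which primary culture was used or how long after transfection it was sorted.

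Keratins are the intermediate filament proteins of epithelial cells. A filament is built from pairs of 1 type I and 1 type II chain, so a chain without its partner is usually unstable as a protein. Krt8 (type II) and Krt18 (type I) form the pair of simple, single-layered epithelia, to which Krt7 (type II), Krt19 (type I) and Krt20 (type I, of intestinal and Merkel cells) are added in particular tissues. Krt14 and Krt15 are type I chains of the basal layer of stratified epithelia. Krt13 is a type I chain of the layers above the basal one in moist stratified epithelia. Krt17 is a type I chain of skin appendages that is induced in injured epidermis. Striated muscle is built on another intermediate filament, desmin, but Krt8 and Krt19 are known at its costameres, the attachments of the contractile apparatus to the membrane.

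In the RefSeq gene order of the mouse, Krt13, Krt15 and Krt19 stand next to each other on chromosome 11, with no coding gene between them. Krt14 follows after 1 further keratin gene, Krt9, and Krt17 after 1 more, Krt16, while Krt20 lies on the same chromosome with 48 coding genes between it and Krt13. On chromosome 15, Krt8 and Krt18 are neighbours, and Krt7 lies 23 coding genes away. The chromosome 11 keratins thus include both members that were higher after knockdown (Krt14, Krt17) and members that were lower (Krt13, Krt19). To show what lies before their starts, the bases directly before the outermost RefSeq start are given for the 5 members that have such an entry (GRCm38.p6, 5′ to 3′ on the strand of the gene). They were taken for chr15:101412303-101412402 (+) for Krt7, chr15:102004343-102004442 (-) for Krt8, chr15:102028116-102028215 (+) for Krt18, chr11:100121567-100121766 (-) for Krt13 and chr11:99438154-99438253 (-) for Krt20. Capitals mark the TATA-box letters ATAAAAG and the letters TGANTCA, a loose form of the AP-1 factor motif in which N is any base.
Krt7: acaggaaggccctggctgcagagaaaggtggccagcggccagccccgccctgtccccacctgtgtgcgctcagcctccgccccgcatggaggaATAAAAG
Krt8: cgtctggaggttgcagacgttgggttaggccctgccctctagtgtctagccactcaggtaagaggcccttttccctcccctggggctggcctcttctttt
Krt18: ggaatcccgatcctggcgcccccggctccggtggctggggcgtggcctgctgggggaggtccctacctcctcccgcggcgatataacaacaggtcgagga
Krt13: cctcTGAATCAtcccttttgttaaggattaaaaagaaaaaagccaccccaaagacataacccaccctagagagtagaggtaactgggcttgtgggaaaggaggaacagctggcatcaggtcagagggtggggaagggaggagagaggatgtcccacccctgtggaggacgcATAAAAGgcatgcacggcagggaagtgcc
Krt20: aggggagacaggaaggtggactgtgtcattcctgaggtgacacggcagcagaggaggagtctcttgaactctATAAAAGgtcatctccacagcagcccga

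Searched on both strands of the 100 bases before the start, ATAAAAG was found for Krt7, Krt13 and Krt20, beginning 7, 29 and 28 bases before the start. The match of Krt7 thus ends at the annotated start itself, while those of Krt13 and Krt20 lie further upstream. ATAAAAG was found for 2.21% of the 32851 promoter entries of the table in the same window. Over 250 bases before the start, TGANTCA, which reads the same on both strands, was found for Krt13 alone among these 5. It begins 196 bases before the start and reads TGAATCA there. The loose form was found for 6.75% of all entries. Inner starts were also searched for Krt13, with 2 matches that read TGACTCA, and for Krt14, with none. The forkhead motif GTAAACA was found for none of the 5 and for 3.17% of all entries. The motifs were picked after the sequences had been seen, they do not overlap, and a match or its absence in such a window is only a description of these letters.

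Values are log2 probe signals after background correction and quantile normalization over the 16 arrays, and a probe counts as detected with a detection p under 0.05. Signals of different probes cannot be ranked against each other, so each keratin is compared with itself. Between 12535 and 13135 of 25697 probes were detected per array, replicate arrays of a group correlated at 0.988 or more, while precision is limited by how many arrays there were. Foxo1, whose probe may read the fusion transcript besides native Foxo1, was 8.45 ± 0.23 in knockdown and 9.30 ± 0.08 in control 2N cells, 8.52 ± 0.12 and 9.42 ± 0.10 in 3N cells, and 8.76 ± 0.24 and 9.47 ± 0.14 in 4N cells (SD, n = 3, 2 and 3 arrays a group). Its groups did not overlap at any DNA content. Krt7, Krt8, Krt14 and Krt18 were detected on all 16 arrays, Krt20 on 12, Krt13 on 11, Krt19 on 10, Krt17 on 8 and Krt15 on 1. Genes detected on at least 3 arrays of a fit were tested, which leaves 8 of the 9 members. The plot of all keratin probes shows each array.

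**Figure D1:**
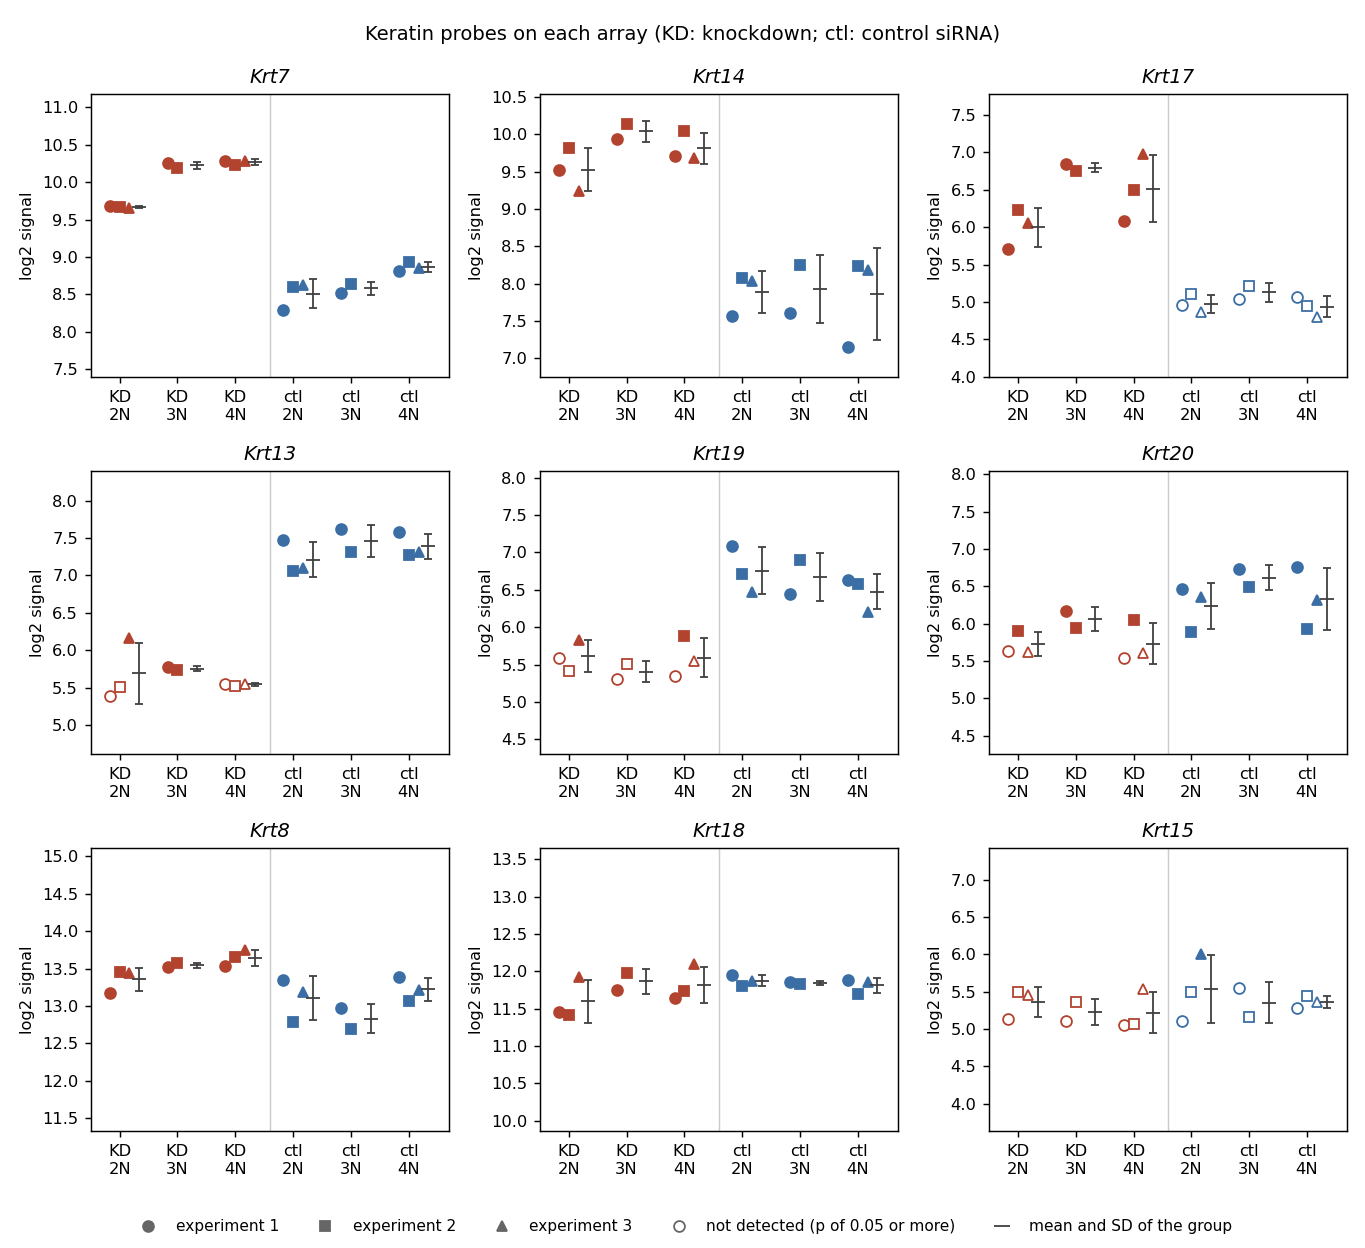
Log2 signal of the 9 keratin probes on each of the 16 arrays, by group (KD, knockdown; ctl, control siRNA), with symbols for the experiment, open symbols where the probe was not detected, and the group mean with its SD. Every panel spans the same log2 range. Krt7, Krt14 and Krt17 lie higher on all 8 knockdown arrays than on any control array, and Krt13 and Krt19 lie lower on all 8.

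Krt7, the type II chain of simple and ductal epithelia, was among the keratins of the higher set. It had 9.68, 9.66 and 9.66 in knockdown 2N cells of experiments 1, 2 and 3, against 8.28, 8.60 and 8.63 in control 2N cells. It had 10.26 and 10.19 in knockdown 3N cells of experiments 1 and 2, against 8.52 and 8.64 in control 3N cells. It had 10.29, 10.23 and 10.29 in knockdown 4N cells, against 8.82, 8.94 and 8.85 in control 4N cells. No knockdown array reached down to the highest control array, at any DNA content. The log2 differences were 1.16 (SE 0.10) in 2N, 1.65 (SE 0.12) in 3N and 1.40 (SE 0.10) in 4N cells, or 2.23-fold, 3.13-fold and 2.64-fold. From high to low the group means ran in the order knockdown 4N, knockdown 3N, knockdown 2N, control 4N, control 3N and control 2N. In that order the ranges of knockdown 4N and 3N cells overlapped, as did those of control 3N and 2N cells, while the other neighbours did not overlap.

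Krt14, the basal layer chain, had larger differences than Krt7 at each DNA content. In 2N cells it was 9.52, 9.82 and 9.24 with knockdown, against 7.56, 8.07 and 8.03 with the control. In 3N cells it was 9.94 and 10.14 with knockdown, against 7.60 and 8.25 with the control. In 4N cells it was 9.71, 10.05 and 9.68 with knockdown, against 7.15, 8.24 and 8.18 with the control. The lowest knockdown array was thus above the highest control array, although experiment 1 was the lowest control array of all 3 groups. The log2 differences were 1.64 (SE 0.27) in 2N, 2.11 (SE 0.33) in 3N and 1.95 (SE 0.27) in 4N cells, which is 3.11-fold, 4.33-fold and 3.87-fold. The means ran in the order knockdown 3N, 4N and 2N, then control 3N, 2N and 4N, and within each siRNA the ranges of all neighbours in that order overlapped.

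Krt17 was a change from undetected to detected. It was detected on none of the 8 control arrays, where its log2 signal lay between 4.79 and 5.22, and on all 8 knockdown arrays. These held 5.71, 6.23 and 6.05 in 2N cells, 6.84 and 6.75 in 3N cells, and 6.08, 6.49 and 6.98 in 4N cells. Control signals below detection are only a limit, so the differences are bounds: Krt17 was at least 1.19-fold higher with knockdown in 2N, at least 2.08-fold in 3N and at least 1.72-fold in 4N cells. Each bound sets the mean of the knockdown arrays against the lowest detected signal of the control arrays. These bounds hold for background-corrected signals. Over the settings that kept every array, the log2 difference of Krt17 was as low as 0.49 in 2N, 0.76 in 3N and 0.76 in 4N cells. The measured log2 means were 6.0 ± 0.26, 6.80 ± 0.06 and 6.52 ± 0.45 with knockdown in 2N, 3N and 4N cells, against 4.98 ± 0.12, 5.13 ± 0.13 and 4.94 ± 0.14 with the control (SD, n = 3, 2 and 3 arrays).

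Krt13, the chain of moist stratified epithelia, was lower after knockdown. In 2N cells it had 5.39, 5.51 and 6.16 with knockdown, against 7.48, 7.06 and 7.10 with the control. In 3N cells it had 5.77 and 5.73 with knockdown, against 7.61 and 7.31 with the control. In 4N cells it had 5.55, 5.53 and 5.55 with knockdown, against 7.58, 7.28 and 7.31 with the control. All 8 control arrays detected it, and of the knockdown arrays 1 of 3 in 2N, 2 of 2 in 3N and 0 of 3 in 4N cells. The log2 differences were -1.52 (SE 0.18) in 2N and -1.71 (SE 0.22) in 3N cells. In 4N cells, where it was undetected after knockdown, it was at least 3.17-fold lower, with measured means of 5.54 ± 0.01 with knockdown and 7.39 ± 0.17 with the control (SD, n = 3). This bound holds for background-corrected signals. Over the settings that kept every array, the 4N log2 difference of Krt13 was as small as -0.90.

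Krt19, a chain of simple epithelia that is also known from muscle costameres, was lower as well. In 2N cells it was 5.58, 5.41 and 5.83 with knockdown, against 7.09, 6.70 and 6.47 with the control. In 3N cells it was 5.30 and 5.50 with knockdown, against 6.44 and 6.90 with the control. In 4N cells it was 5.35, 5.88 and 5.55 with knockdown, against 6.63, 6.58 and 6.21 with the control. All control arrays detected Krt19 and 2 of the 8 knockdown arrays did, with no overlap between the siRNA groups. Its log2 differences were -1.14 (SE 0.19) in 2N and -0.88 (SE 0.19) in 4N cells. In 3N cells, with no detected knockdown array, it was at least 1.99-fold lower, with measured means of 5.40 ± 0.14 with knockdown and 6.67 ± 0.32 with the control (SD, n = 2). This bound holds for background-corrected signals. Over the settings that kept every array, the 3N log2 difference of Krt19 was as small as -0.55.

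Krt20 showed smaller differences that depended on the experiment. In 2N cells it was 5.64, 5.91 and 5.63 with knockdown, against 6.47, 5.88 and 6.36 with the control, so that it was not lower in experiment 2. In 4N cells it was 5.54, 6.05 and 5.61 with knockdown, against 6.76, 5.93 and 6.32 with the control, and experiment 2 again stood apart. In 3N cells, 6.17 and 5.94 with knockdown lay below 6.74 and 6.50 with the control. The log2 differences were -0.51 (SE 0.22), -0.56 (SE 0.25) and -0.60 (SE 0.22) in 2N, 3N and 4N cells. Over the settings that kept every array they were as small as -0.21, -0.25 and -0.26. All 8 control arrays and 4 of the 8 knockdown arrays detected Krt20.

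The Krt8 and Krt18 pair had bright probes and small differences. Krt8 was 13.18, 13.45 and 13.44 in knockdown 2N cells, against 13.35, 12.78 and 13.19 in control 2N cells, with overlapping groups and a log2 difference of 0.25 (SE 0.15). It did not overlap in 3N cells, with 13.52 and 13.57 after knockdown against 12.97 and 12.70 with the control, nor in 4N cells, with 13.54, 13.65 and 13.74 after knockdown against 13.38, 13.07 and 13.21 with the control. Its log2 differences there were 0.71 (SE 0.18) and 0.42 (SE 0.15), which are smaller than those of Krt7 in the same cells. Krt18 was 11.45, 11.42 and 11.93 in knockdown 2N cells, against 11.95, 11.80 and 11.87 in control 2N cells, a log2 difference of -0.27 (SE 0.15). In 3N cells it was 11.75 and 11.98 with knockdown, against 11.86 and 11.83 with the control. In 4N cells it was 11.64, 11.73 and 12.10 with knockdown, against 11.89, 11.70 and 11.86 with the control. Its groups overlapped at each DNA content, with log2 differences of 0.02 (SE 0.18) in 3N and 0.01 (SE 0.15) in 4N cells, and 95% confidence intervals from -0.36 to 0.40 and from -0.32 to 0.34. In 3N and 4N cells the type II chain of the pair was thus higher on every knockdown array, while the groups of the type I chain overlapped.

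Krt15, the last member, was detected on 1 of 16 arrays, that of control 2N cells in experiment 3. Its signals lay between 5.05 and 5.53 with knockdown and between 5.11 and 6.0 with the control, and it was not tested.

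**Figure D2:**
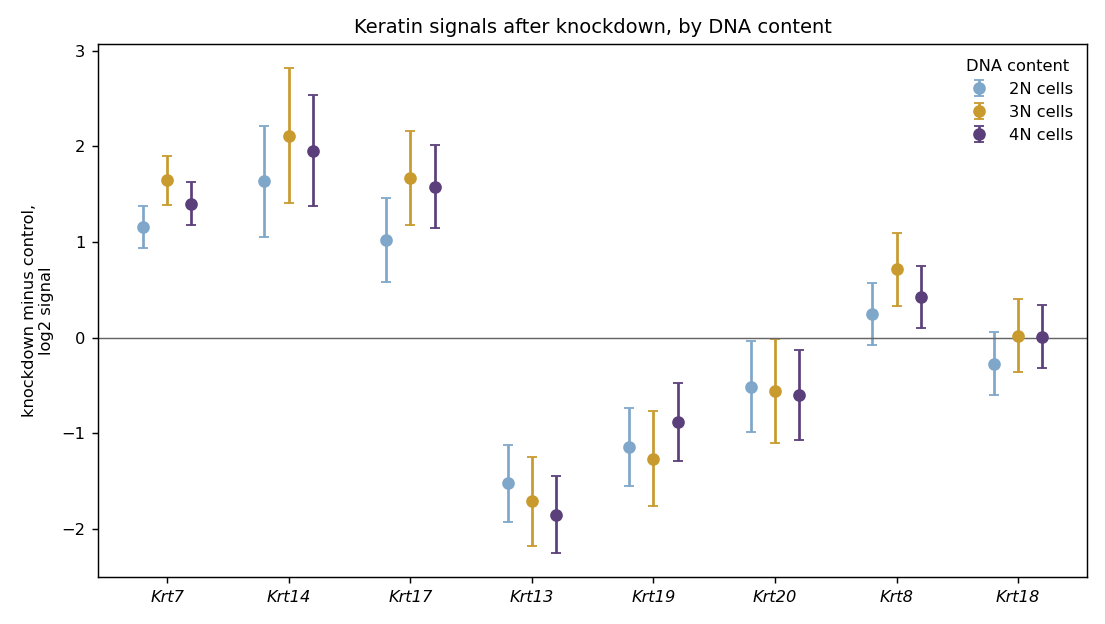
Knockdown minus control difference in log2 signal for the 8 keratins measured, in 2N, 3N and 4N cells, with 95% confidence intervals from the fit. Krt7, Krt14 and Krt17 lie above 0 and Krt13 and Krt19 below 0 at each DNA content, and the points of Krt17 rest on control signals below detection. The Krt13 point in 4N and the Krt19 point in 3N cells rest on knockdown signals below detection. For Krt13 in 2N cells and for Krt19 and Krt20 in 2N and 4N cells, 1 knockdown array each was detected.

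Counted over the 8 measured members, the siRNA groups did not overlap for 3 higher and 2 lower in 2N cells, 4 higher and 3 lower in 3N cells, and 4 higher and 2 lower in 4N cells. Over all genes of the same fits the groups did not overlap for 17.4% higher and 18.9% lower in 2N, 25% and 28% in 3N, and 17.9% and 19.2% in 4N cells. Since these contrasts were used to select the keratins, nothing is read from the counts beside those shares. The median log2 difference of the 8 was -0.01 in 2N, 0.37 in 3N and 0.22 in 4N cells, against -0.01 in each over all genes. Without background correction the log2 differences of dim probes were much smaller, with -0.73 for Krt13, -0.51 for Krt19 and 0.49 for Krt17 in 2N cells. As bulk signals, the values do not tell fewer cells with a keratin apart from less keratin mRNA in each cell.

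DNA content played no part in the choice of the keratins and was tested with limma across all genes, with Benjamini-Hochberg adjustment and a threshold of 0.05. In knockdown cells 4N minus 2N was called for 1 of the 8 members, Krt7, which was higher by 0.60 in 4N cells on the log2 scale (SE 0.10, limma adjusted p = 0.00370, in 3 of 3 experiments). Of all 9146 genes, 5.34% were called in this comparison. Within experiments 1, 2 and 3 the Krt7 difference was 0.61, 0.57 and 0.63, so that it varied little between them. In control cells the same comparison called 0 of 8 members, against 4.8% of all genes. Krt7 was there higher by 0.36 in 4N cells (SE 0.10, limma adjusted p = 0.0699), with 0.53, 0.33 and 0.22 in experiments 1, 2 and 3, and was the 1 member with an unadjusted p under 0.05. This value passed with the experiment as a replicate block (limma adjusted p = 0.0469) and in a fit of all 16 arrays (0.0446).

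The 3N cells placed most of the step of Krt7 between 2N and 3N after knockdown. There 3N minus 2N was called for 2 of 8 members, against 6.1% of 9306 genes. Krt7 was higher by 0.56 in 3N cells (SE 0.11, limma adjusted p = 0.00536), with 0.58 and 0.53 in experiments 1 and 2. When the experiment 1 array of knockdown 3N cells was left out, its adjusted p was 0.0664. Krt17 was higher by 0.80 in knockdown 3N than in 2N cells (SE 0.21, limma adjusted p = 0.0368), with 1.13 and 0.53 in the 2 experiments, all of these arrays being detected. Its call ended when any of 4 arrays was left out, with adjusted p of 0.132 and 0.0733 for experiments 1 and 3 of knockdown 2N cells, and 0.193 and 0.175 for experiments 1 and 2 of knockdown 3N cells. It ended too with uncorrected background (log2 difference 0.37, limma adjusted p = 0.0665), with the authors' values (0.37, adjusted p = 0.0661) and with no filter on dim probes (0.80, adjusted p = 0.0540). In 4N against 2N knockdown cells Krt17 differed by 0.52 (SE 0.20, limma adjusted p = 0.184), with 0.37, 0.26 and 0.93 in the 3 experiments, and did not pass.

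In the other comparisons of DNA content no member was called. 4N minus 3N gave 0 of 8 in knockdown cells, with none at an unadjusted p under 0.05, against 0.978% of all genes called. In control cells it gave 0 of 8, with 2 at an unadjusted p under 0.05 (Krt7, 0.29, SE 0.11, and Krt8, 0.39, SE 0.16; limma adjusted p = 0.299 and 0.360), against 0.763% of all genes. 3N minus 2N gave 0 of 8 in control cells, with none at an unadjusted p under 0.05, against 4.81% of all genes. Krt7 differed by 0.07 there (SE 0.11), with a 95% confidence interval from -0.16 to 0.31, and by -0.038 when experiment 1 of control 2N cells was left out.

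**Figure D3:**
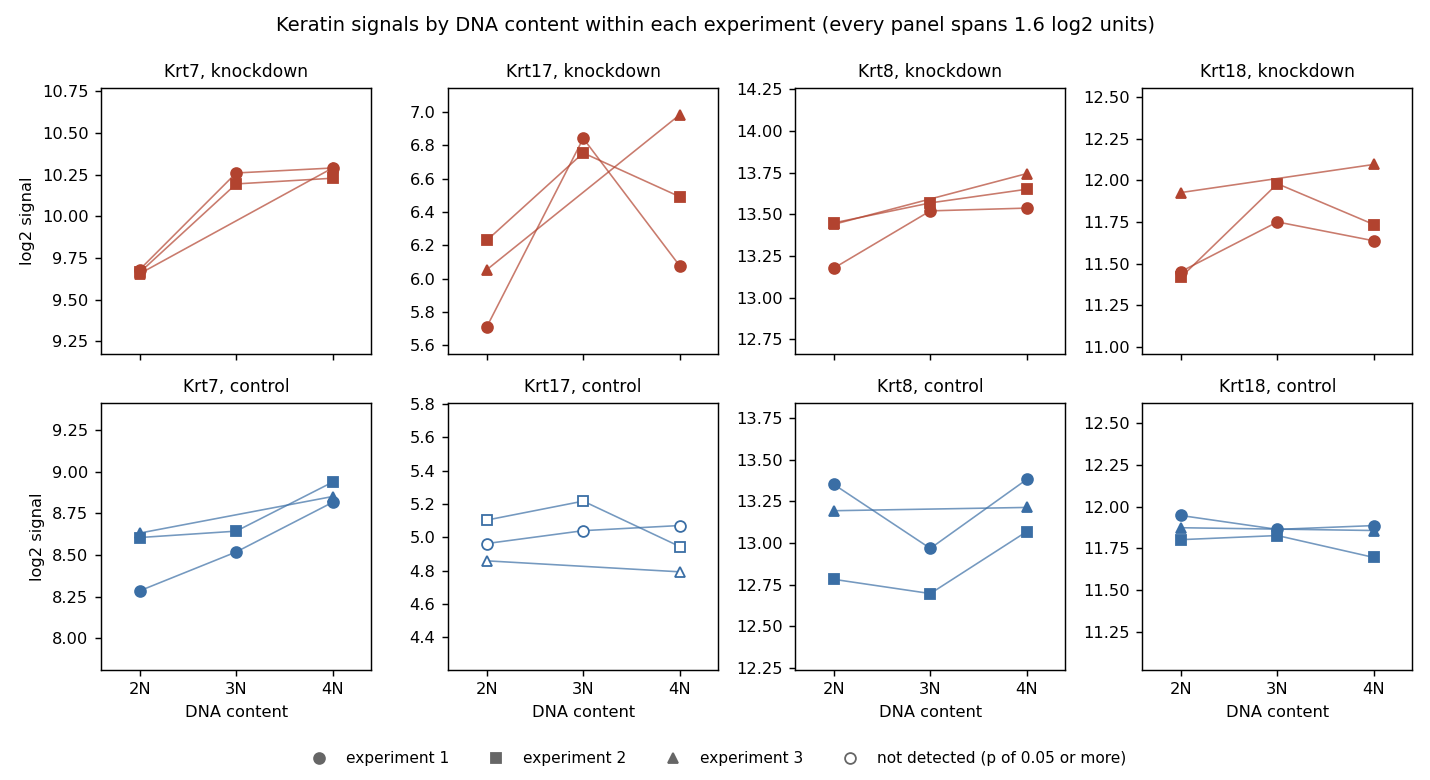
Log2 signals of Krt7, Krt17, Krt8 and Krt18 in 2N, 3N and 4N cells, with the arrays of 1 experiment joined by a line, knockdown in the upper row and control in the lower row, and open symbols where the probe was not detected. Knockdown Krt7 is higher in 3N and 4N than in 2N cells in each experiment with those arrays, and control Krt7 is higher in 4N than in 2N cells in 3 of 3.

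The remaining 6 members did not pass any comparison of DNA content. In knockdown cells 4N minus 2N was 0.29 for Krt8 (SE 0.15), 0.22 for Krt18 (SE 0.15), 0.28 for Krt14 (SE 0.27), -0.15 for Krt13 (SE 0.18), -0.02 for Krt19 (SE 0.19) and 0.01 for Krt20 (SE 0.22). In control cells it was 0.11 for Krt8, -0.06 for Krt18, -0.03 for Krt14, 0.18 for Krt13, -0.28 for Krt19 and 0.10 for Krt20, with SE between 0.15 and 0.27. The median over the 8 members was 0.25 in knockdown and 0.03 in control cells, against -0.03 and -0.02 over all genes. Whether the 4N minus 2N difference was another one with knockdown than with the control was tested as an interaction, which called 0 of 8 members and 0% of 9146 genes (limma, 293 genes and 0 members at an unadjusted p under 0.05). This difference of differences was 0.24 for Krt7 (SE 0.14, 95% confidence interval from -0.07 to 0.56) and 0.56 for Krt17 (SE 0.28, from -0.06 to 1.18), and that of Krt17 rests on control signals below detection. For the Krt7 step in 4N cells, a larger size after knockdown was thus not shown.

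The other keratins listed were mostly below detection. Of 17 other type I genes 13, and of 19 other type II genes 12, were detected on no array. These lists and the members do not hold every one of the 47 keratin genes on the array. The undetected ones include the usual type II partners of the members described: Krt5, which pairs with Krt14, Krt4, which pairs with Krt13, and Krt6a and Krt6b, which pair with Krt17. Among the members and these lists, the type II keratins detected on every array were Krt7, Krt8 and Krt80, and the type I keratins Krt10, Krt14, Krt18 and Krt23. Krt10, a chain of differentiating epidermis, was between 9.51 and 9.86 with knockdown and between 9.41 and 10.07 with the control, and passed no test.

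Of 4 other type I keratins measured, 1 passed the test of knockdown minus control, against 10.9% of all genes higher and 10.4% lower in 2N cells, and 9.83% and 9.27% in 4N cells. Krt23 fell, with log2 differences of -1.25 in 2N cells (SE 0.34, limma adjusted p = 0.0219) and -1.15 in 4N cells (SE 0.34, adjusted p = 0.0350), in 3 of 3 experiments. Its values were 7.25, 6.45 and 7.04 in knockdown 2N cells, against 8.83, 7.60 and 8.07 in control 2N cells, and 7.39, 6.49 and 6.84 in knockdown 4N cells, against 8.63, 7.70 and 7.85 in control 4N cells. The siRNA groups overlapped in neither cell group, but the call in 2N cells ended when control experiment 1 or knockdown experiment 2 was left out (limma adjusted p = 0.0873 and 0.0889). In 4N cells it ended when control experiment 1 or 3 (0.129 and 0.0576) or knockdown experiment 2 or 3 (0.126 and 0.0890) was left out, and with no filter on dim probes or all 16 arrays (0.0571 and 0.0582). The 2N difference was -0.82 and the 4N difference -0.74 at the smallest over the settings that kept every array.

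Of 4 other type II keratins measured, none passed knockdown minus control, and Krt80 alone passed a comparison of DNA content. With knockdown it had 6.93, 7.05 and 6.83 in 2N cells, 7.80 and 7.83 in 3N cells, and 7.62, 7.25 and 7.48 in 4N cells. Both later groups lay above the 2N arrays, by 0.88 in 3N cells (SE 0.13, limma adjusted p = 0.000734) and by 0.52 in 4N cells (SE 0.11, adjusted p = 0.0170). The 4N call ended when experiment 1 or 3 of knockdown 2N cells (adjusted p = 0.0582 and 0.0747) or of knockdown 4N cells (0.0768 and 0.0636) was left out. In control cells the 4N minus 2N difference of Krt80 was 0.33 (SE 0.11, adjusted p = 0.120), and its 3N minus 2N difference 0.42 (SE 0.13, adjusted p = 0.0955), while its 4N difference of differences was 0.19 (SE 0.16, adjusted p = 0.9999). Without background correction the knockdown differences of Krt80 were 0.55 in 3N and 0.31 in 4N cells. Among the members and the listed keratins, Krt7 and Krt80 were thus those called in both 3N and 4N against 2N knockdown cells.

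Genes whose products hold or replace keratin filaments were read from lists. Over all genes, 10.9% were called higher and 10.4% lower after knockdown in 2N cells, and 9.83% and 9.27% in 4N cells. Of 8 measured genes of other intermediate filaments, 2 were higher and 1 lower after knockdown in both 2N and 4N cells. Synm (synemin, which binds desmin) was higher by 0.70 in 2N cells (SE 0.17, limma adjusted p = 0.0129) and 0.75 in 4N cells (adjusted p = 0.00937), a call that ended in 2N cells when knockdown experiment 1 was left out (0.0502). Its other probes gave 0.43 and -0.24 in 2N cells and 0.15 and 0.72 in 4N cells, so it depends on the probe. Des (desmin) had log2 differences of 0.52 and 0.61, calls that ended when any array but that of control experiment 1 was left out (adjusted p up to 0.180 and 0.107). In 2N cells the Des call also ended with no filter on dim probes (0.0740) and with every probe on its own (0.0556). Lmna (lamin A and C) had -0.41 and -0.43, with a call that ended in 2N cells when knockdown experiment 1 was left out (0.0604). All 4 other Lmna probes had negative differences, of which 2 did not pass in 2N cells (adjusted p = 0.110 and 0.0604) and 3 did not in 4N cells (0.0560, 0.152 and 0.0532). Vim (vimentin) had -0.04 and 0.02. Of 11 measured desmosomal and linker genes, 1 was higher and 2 were lower in both. Eppk1 (epiplakin, which binds keratin filaments) was higher by 1.04 in 2N (SE 0.14, limma adjusted p = 0.000359) and 0.74 in 4N cells (adjusted p = 0.00354). Itga6, the integrin chain to which hemidesmosomes are anchored, fell, with log2 differences of -0.84 and -0.80 (adjusted p = 0.000319 and 0.000440). Pkp3, a desmosomal plakophilin, had -0.74 and -0.85, and its call ended in 2N cells when any array but that of knockdown experiment 3 was left out (adjusted p up to 0.128), with no filter on dim probes (0.0503) or with all 16 arrays (0.0523), and in 4N cells when control experiment 1 or 3 or knockdown experiment 1 or 2 was (up to 0.0723).

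Of 18 measured regulators of keratin genes, 3 were higher and 2 lower in 2N cells, and 3 were higher and 6 lower in 4N cells. The shares over all genes were 10.9% higher and 10.4% lower in 2N cells, and 9.83% and 9.27% in 4N cells. Trp63 (p63), the regulator of basal epithelial keratins, was detected on none of the 8 control arrays and on all 8 knockdown arrays, as was Krt17. It was at least 1.84-fold higher with knockdown in 2N and at least 2.85-fold in 4N cells, bounds that hold for background-corrected signals. The measured log2 differences were 1.68 and 2.29 (limma adjusted p = 6.15e-05 and 5.36e-06) and rest on control signals below detection. Over the settings that kept every array they were as low as 0.80 and 1.13. Trp63 passed the detection filter through its knockdown arrays alone. Its knockdown signals lay between 6.22 and 7.95 and its control signals between 4.84 and 5.36. Fosl1, an AP-1 factor, fell, with log2 differences of -1.24 in 2N (SE 0.20, limma adjusted p = 0.00103) and -1.32 in 4N cells (adjusted p = 0.000729). Tfap2a, an AP-2 factor, had -0.51 and -0.70, and its call ended in 2N cells when control experiment 1 or 3 or knockdown experiment 2 or 3 was left out (adjusted p up to 0.16) or dim probes were not filtered (0.0612). Its other probes had -0.32 and -0.56 in 2N cells (adjusted p = 0.208 and 0.0568) and -0.70 and -0.77 in 4N cells (0.0115 and 0.0148). Ets2 had 0.56 and 0.87, and its call ended in 2N cells when control experiment 1 or knockdown experiment 2 was (0.05002 and 0.0547). Klf4 differed by 0.67 (SE 0.35) and 0.50 and did not pass.

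**Figure D4:**
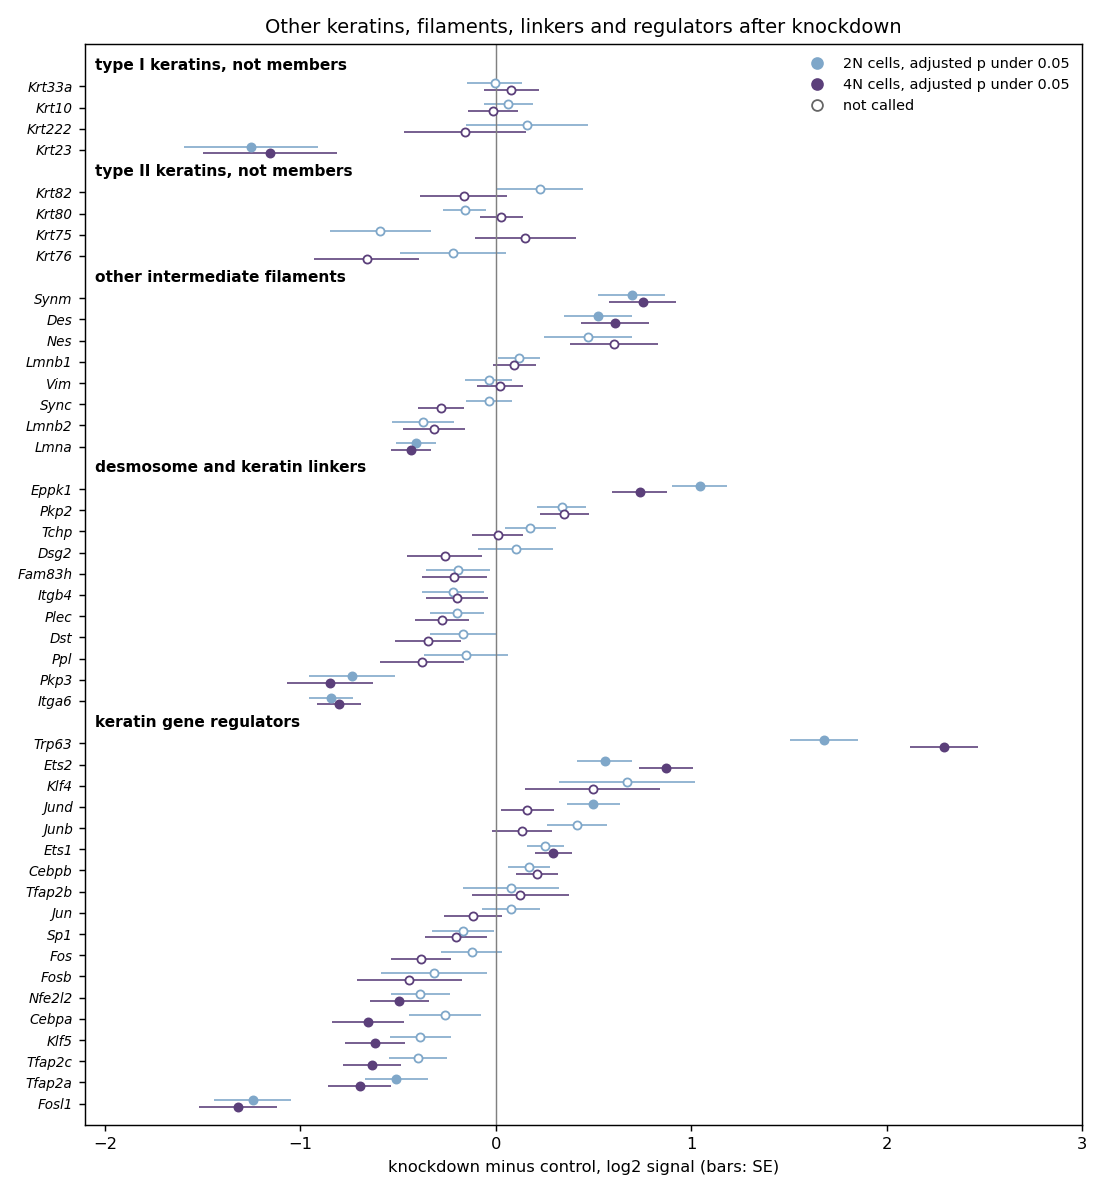
Knockdown minus control difference in log2 signal, with its SE, for measured genes of the keratin, intermediate filament, linker and regulator lists in 2N and 4N cells, filled where the limma adjusted p was under 0.05. Trp63 and Eppk1 lie above 0 and Fosl1, Krt23 and Itga6 below 0 in both cell groups, and the points of Trp63 rest on control signals below detection.

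Markers of other cells that a tumor culture could hold are given beside the keratins. Of 25 epithelial markers on the array, 14 were detected on no array, among them Ocln, Esrp1, Grhl2 and Rab25. Their summed linear signal was 1349 to 1440, 1395 to 1590 and 1391 to 1484 in knockdown 2N, 3N and 4N cells, against 1383 to 1609, 1690 to 1704 and 1499 to 1543 in the control groups. Such sums, here and for the lists below, mainly follow the brightest probes of a list. Over all genes, 10.9% were called higher and 10.4% lower in 2N cells, and 9.83% and 9.27% in 4N cells. Of 9 epithelial markers measured, 1 was higher in 2N cells, and 1 was higher and 2 were lower in 4N cells. The lower ones were Cdh3, with log2 differences of -0.41 in 2N and -0.74 in 4N cells, and Spint1, with -0.52 and -0.79. Their limma adjusted p was 0.0879 and 0.103 in 2N cells, and 0.00661 and 0.0200 in 4N cells. Cdh1 (E-cadherin), the higher one, was detected on all 8 knockdown arrays at 6.65 to 7.11 and on 1 of 8 control arrays at 5.31 to 5.77. It was at least 1.98-fold higher in 2N and at least 2.33-fold in 4N cells. These bounds hold for background-corrected signals and were not tested. No control 2N or 4N array detected Cdh1, so it passed the detection filter of that fit through its knockdown arrays alone. The measured log2 differences passed (limma adjusted p = 2.96e-05 and 2.71e-06) but rest on control signals below detection. Over the settings that kept every array, the log2 difference of Cdh1 was as low as 0.49 in 2N and 0.68 in 4N cells. Of 17 keratinocyte markers, 9 were detected on no array, including Krt5, Ivl and Dsg3, and Trp63 was the 1 of 7 measured that passed. Their sum was 2950 to 3579 over the knockdown groups and 2470 to 3736 over the control groups, with Sprr2a1 and Krt10 as the brightest probes.

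Of 7 mesothelial markers 3 were detected on no array, and 2 of 4 measured were lower after knockdown in both cell groups. Beside the counts of this and the following lists stand the shares over all genes. These were 10.9% higher and 10.4% lower in 2N cells, and 9.83% and 9.27% in 4N cells. Upk1b had log2 differences of -1.18 in 2N (limma adjusted p = 0.00412) and -0.97 in 4N cells (0.0136), the last a call that ended when knockdown experiment 2 was left out (0.0581). Msln (mesothelin) had -0.67 and -0.71 (0.0384 and 0.0341), calls that ended when any array of experiment 1 or 2, or in 4N cells that of control experiment 3, was left out (adjusted p up to 0.134 and 0.120), and also with no filter on dim probes (0.0597 and 0.0531). The mesothelial sum was 2037 to 3115 over the knockdown groups and 3151 to 4721 over the control groups. It mainly repeats the Msln difference, since Msln had group means of 10.98 to 11.88 and no other mesothelial marker exceeded 7.29. Wt1 and Bnc1 were not called. Of 10 fibroblast markers, 3 of 6 measured were higher and 1 was lower in both, with sums of 5275 to 6631 over the knockdown groups and 3818 to 5227 over the control groups. The brightest fibroblast probes were those of Col3a1 and S100a4. All 8 endothelial markers, and 6 of 8 immune markers, were detected on no array. Of 16 myogenic markers, 4 were detected on no array (Myod1, Pax7, Ckm and Mymk) and 9 were measured. Of these 9, 5 were higher and 1 lower in 2N cells, and 4 and 2 in 4N cells. Acta1, the skeletal muscle actin, had log2 differences of 2.74 and 2.80. Myogenic sums were 10525 to 14969 over the knockdown groups and 4842 to 6513 over the control groups, and of 7 measured smooth muscle genes 6 were higher in 2N and 4 in 4N cells. The part of any of these in the keratin differences was not tested.

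By the highest Pearson r over the 16 arrays, the genes with the pattern most like Krt7 were Tlr2 (0.979), Gask1b (0.976), Tlr6 (0.976), Tceal8 (0.975) and Gbp3 (0.974). Those most like Krt14 were Itga11 (0.989), Fas (0.980), Htra1 (0.979), Sertad4 (0.974) and Csrp1 (0.974), and those most like Krt13 were Ocrl (0.992), Abhd1 (0.989), Cd55 (0.980), Oxr1 (0.977) and Il24 (0.973). These values rest mainly on the split between the siRNA groups that the 16 arrays share, and they are the top of 9306 genes, so no p is given.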

How the data were processed

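RNA of each sorted sample had been labelled and hybridised to 1 Illumina mouse array. The deposited GenomeStudio table holds the mean intensity of each probe, linear and not yet normalized, and beside each a detection value, a fraction from 0 to 1 that the authors' header calls a p but that is high for bright probes (rank correlation with signal of 0.967 or more on each array), so 1 minus it was used as the detection p. The authors' processed values, deposited as an intensity too, equal quantile normalized signals to within 0.0327 on the log2 scale and served as an alternative. The sources used here give no positions of the probes.

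Signals were background corrected with the normexp model from detection values (offset 16), taken to log2 and quantile normalized over 16 arrays (limma 3.58.1, R 4.3.3). A probe was kept if at least 3 arrays of a fit had its detection p under 0.05, and the brightest probe stood for a gene. Comparisons of 2N and 4N cells were fitted on 12 arrays (8 residual and 3.95 prior degrees of freedom), those with 3N cells on all 16, with 1 mean per group, limma's moderated variance and Benjamini-Hochberg adjustment. Errors of differences are SE from the fit, and those of means are SD over arrays. A group with no detected array gives a bound against the lowest detected signal in place of a fold. Such bounds hold for background-corrected signals. Gene names come from the platform annotation, which names a gene for 23978 of 25697 probes and none for 1719.

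The keratins and gene lists were chosen with earlier results of these data known. Named genes are all members, up to 4 of each list that passed in both 2N and 4N cells in the same direction in 3 experiments and were detected on all arrays of the higher groups, other keratins that passed a DNA content test, and the 5 genes most correlated with Krt7, Krt14 and Krt13; of the muscle, fibroblast and immune lists mainly counts are given. Klf4, Vim, Krt10, Cdh3 and Spint1, and the undetected markers, were picked after their values had been seen. Experiment numbers in the labels pair the arrays: deviations from the group mean correlated between 0.0227 and 0.464 for arrays of the same experiment in other groups (over 0.1 in 16 of 18 pairs) and between -0.300 and 0.143 otherwise. The labels do not say whether the experiments used separate thaws or passages, so the p-values measure the spread between these samples. The fitting was tested on simulated data. Alternatives were no background correction, an offset of 50, the authors' values, other filters on dim probes, every probe on its own, the experiment as a block, all 16 arrays in each fit and leaving out each array.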

Additional observations from a re-analysis of the deposited data

Results flagged for a closer look

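Krt18 had 4N minus 2N differences of opposite sign in the 2 siRNA groups, but neither passed its test. The 95% confidence intervals held 0 in both, from -0.11 to 0.55 with knockdown and from -0.39 to 0.27 with the control. It was higher in 4N than in 2N cells in all 3 knockdown experiments (0.18, 0.32 and 0.17 on the log2 scale in experiments 1, 2 and 3) and lower in all 3 control experiments (-0.06, -0.11 and -0.02). The difference of differences was 0.28 (SE 0.21, 95% confidence interval from -0.18 to 0.75), and it did not pass the test (limma unadjusted p = 0.209, adjusted p = 0.9999). The SD over the control arrays was 0.07 in 2N and 0.10 in 4N cells, and that over the knockdown arrays 0.28 and 0.24.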

How the results depend on the processing

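The count of members called was 1 in place of 0 for 4N minus 2N in control cells with the replicate block and with all 16 arrays in the fit. For 3N minus 2N in knockdown cells it was 1 in place of 2 with no background correction, with the authors' processed values and with no filter on dim probes, and 0 to 2 with 1 array left out in turn. The replicate block changed no other call of a keratin member. The other counts of called members kept their value under every setting run. The counts of members whose groups do not overlap were 5 to 6 in 2N, 7 to 8 in 3N and 6 to 7 in 4N cells with 1 array left out, and otherwise stayed at 5, 7 and 6. The Krt7 difference of 3N minus 2N in control cells changed sign with 1 array left out, with values from -0.038 to 0.14 over such fits. The called 4N minus 2N difference of Krt7 in knockdown cells kept its call in every fit, with adjusted p from 0.000621 to 0.0202.

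Of 312 recomputed knockdown differences of the members, 276 moved by less than the larger SD of the compared groups, and 36 moved more. Krt18, near 0, took either sign with 1 array left out (-0.09 to 0.13 in 3N and -0.13 to 0.10 in 4N cells), and no other member changed sign. Without background correction dim probes had smaller differences: Krt13 in 2N cells then had -0.73 in place of -1.52. Of 782 recomputed values of genes that are no members, 65 lost their call and 0 changed direction; these were mostly left-out arrays for Pkp3, Des, Msln, Krt23 and Tfap2a. With 2 arrays, 3N groups borrow their spread from the other groups, and a 3N group left with 1 array is assumed to vary like them. Signals near detection bound what can be said of Krt13, Krt15, Krt17, Krt19 and Krt20.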
